A study of Mus musculus with 8 samples.

Results

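The CIC-targeted arm of a study of mouse brain neural progenitor cells was compared between its 2 states: CIC-D, the library of CIC-targeted cells in differentiation medium, against CIC, the library of CIC-targeted cells kept proliferating. The 2 libraries were taken by their labels and make up 2 of the 8 libraries of the series. The FUBP1-targeted arm (FUBP1-D against FUBP1) and the non-targeted arm (NT: 7 and GFP-D against TRC and GFP) gave the same contrast in libraries that the CIC arm does not share. All cells were brain progenitors of mice of the strain FvB/C57BL/6. Differentiating cells had spent 5 days in neurobasal medium with B27, and proliferating cells were grown in N2 medium that contained EGF and bFGF, each at 20 ng/ml. The labels list a selection of 3 days in puromycin for all 8 libraries. They describe lentiviral hairpins for the FUBP1-targeted cells. They do not name the construct behind the CIC-targeted or NT cells or the number of cultures or animals.

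CIC (capicua) is an HMG-box repressor that sits on short octamers in the promoters and enhancers of genes switched on by receptor tyrosine kinases. ERK signalling relieves this repression, so that the Etv1, Etv4 and Etv5 transcription factors, the Spry and Spred feedback inhibitors and the Dusp phosphatases are induced when growth factors such as EGF and FGF act. Neural progenitors divide in those factors. When the factors are withdrawn they leave the cell cycle and turn to glial and neuronal programmes, with astrocytes as a frequent outcome in culture.

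With 1 library a side, a difference between CIC-D and CIC has no replicate check and carries no p-value. Changes are given on the log2(FPKM + 1) scale, where FPKM is the deposited level per length of transcript and per size of library, and a gene is counted when its change reaches 1 log2 unit either way, called the line below. In the NT arm a gene was also required to have both differentiating libraries beyond both proliferating ones. The spread between libraries of one kind sets the scale: TRC and GFP lay 1 log2 unit or more apart in 16.2% of the 11968 genes kept, and 7 and GFP-D in 9.56%. The files give no fragment counts, so depth is unknown.

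Cic itself (chromosome 7, 26067198 to 26079167, mm9) stood at 25.6 FPKM in CIC-D and 13.3 FPKM in CIC, and both were below the 32.1 to 49.5 FPKM of the other 6 libraries. Its level in the differentiating library was thus the higher of the pair, by 0.90 log2 units, whereas its change was -0.61 in the FUBP1 arm and 0.07 in the NT arm. Fubp1 was at 26.9 FPKM in CIC-D and 34.8 FPKM in CIC, and Kdm1a, which encodes the histone demethylase LSD1, at 50.5 and 35.6 FPKM in the same order. Fubp1 followed the label of its own arm only in part. FUBP1-D had the least of the differentiating libraries, 21.6 FPKM against 24.8 FPKM in 7 and 25.4 FPKM in GFP-D, but the proliferating library labelled FUBP1 had 34.8 FPKM against 50.2 FPKM in TRC and 12.4 FPKM in GFP, so the FUBP1 arm is named below by its labels alone.

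Across the 11968 genes, 2351 (19.6%) were at or past the line upward in the CIC arm and 1662 (13.9%) downward, which is 33.5% either way, and 697 (5.82%) and 399 (3.33%) reached 2 log2 units. The same counts were 1919 (16%) and 1598 (13.4%) in the FUBP1 arm, and 1442 (12%) and 1153 (9.63%) in the NT arm under its stricter rule. The median change over all genes was 0.10 in the CIC arm. Over the same genes, the CIC-arm change correlated with the NT change at Pearson's r of 0.769 and with the FUBP1-arm change at 0.714, and the FUBP1 and NT changes correlated with each other at 0.862. The 2 NT pairs, GFP-D minus GFP and 7 minus TRC, correlated with each other at 0.706, and the CIC-arm change with these 2 pairs at 0.716 and 0.708. The FUBP1-arm change correlated with them at 0.750 and 0.833, and the levels in FUBP1 and TRC at 0.980. These are descriptions across genes, which are not independent of each other.

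Most of the largest changes of the CIC arm were also made in the other arms. Of the 100 largest increases, 81 were past the line upward in both other arms and 93 in at least one. Of the 100 largest decreases, 84 were past the line downward in both and 94 in at least one. Over the whole set the overlap was smaller. Of the 2351 increases 803 were shared by all 3 arms (6.71% of the genes kept), which is 34.2% of the CIC-arm list and 77.1% of the 1042 increases that the FUBP1 and NT arms had in common. Of the 1662 decreases 712 were shared (5.95% of the genes kept), which is 42.8% of the CIC-arm list and 74.0% of the 962 decreases in common. In neither other arm were 955 of the increases (40.6%) and 658 of the decreases (39.6%) past the line. Of these, 337 increases (14.3% of the CIC-arm list) and 286 decreases (17.2%) had changes under 0.5 log2 units that way in both other arms. The rest moved that way by 0.5 log2 units or more in the FUBP1 arm, the NT arm or both. Opposite movement was rare: 30 increases and 24 decreases were past the line the other way in at least one other arm.

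**Figure D1:**
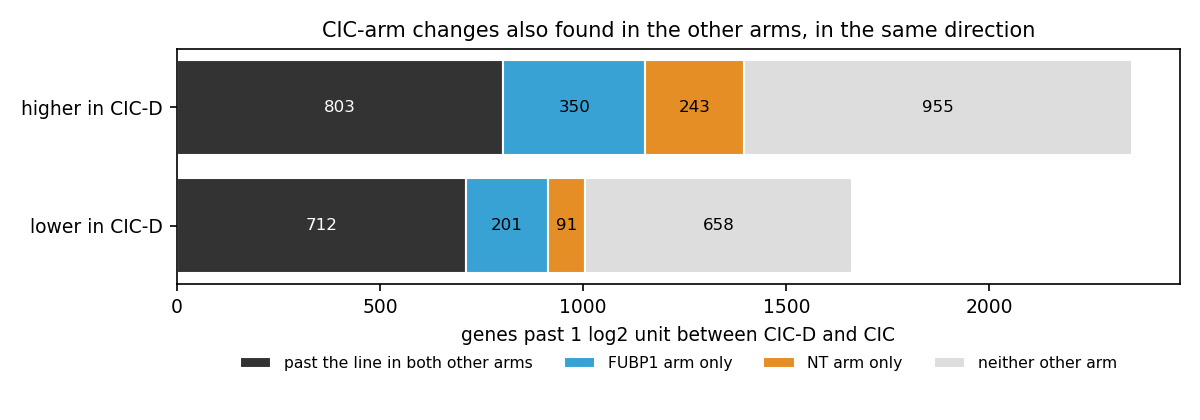
Number of genes at or past 1 log2 unit between CIC-D and CIC (horizontal axis), with higher in CIC-D above lower in CIC-D, split by whether the other arms reached the line in the same direction. All 3 arms shared 803 increases and 712 decreases. For 955 increases and 658 decreases neither other arm reached the line in the same direction, though many moved that way by less.

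**Figure D2:**
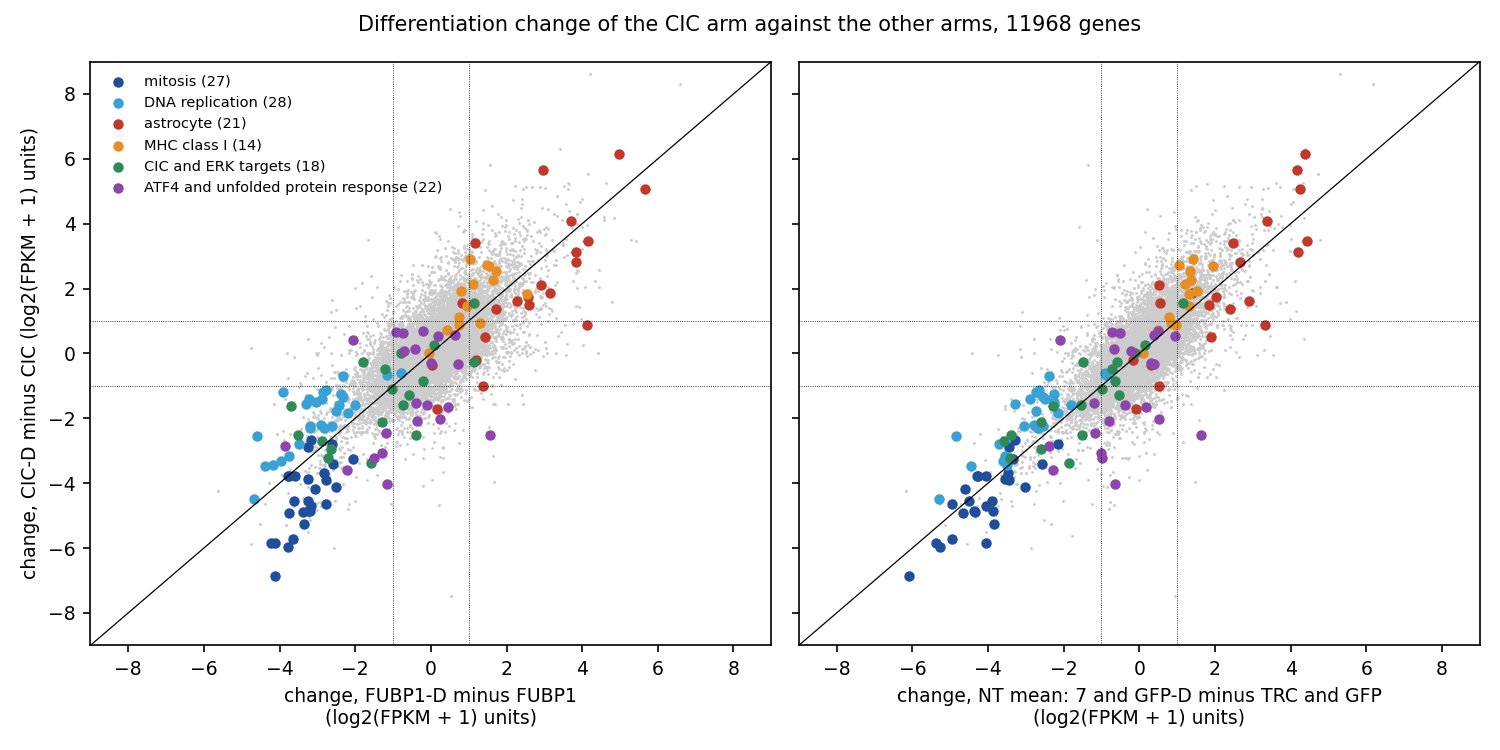
Change of each of 11968 genes in the CIC arm (vertical axis, log2(FPKM + 1) units) against its change in the FUBP1 arm (left panel) and the NT arm (right panel), with 6 gene lists in colour, the diagonal of equal change and dotted lines at 1 log2 unit. All 28 DNA replication genes lie above the diagonal in both panels, and the 27 mitosis genes lie below the lower dotted line and left of the left one in both.

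The promoters of 4 groups of genes described below are shown because their members moved together or stood apart together in the CIC arm. The sequences are the 120 bases before the gene start in RefSeq's GRCm38.p6, 5′ to 3′ on the strand of the gene, with each match to the named motif in capitals. The cell cycle homology element (CHR) of mitotic genes was searched as TTTGAA, the E2F site as TTTCGCGC, TTTGGCGC or TTTCCCGC, the CIC octamer as TGAATGAA, TGAATGGA, TCAATGAA or TCAATGGA, and the interferon-stimulated response element (ISRE) as GAAANNGAA, always on both strands.
Ube2c (CHR, chr2:164769809-164769928, plus strand): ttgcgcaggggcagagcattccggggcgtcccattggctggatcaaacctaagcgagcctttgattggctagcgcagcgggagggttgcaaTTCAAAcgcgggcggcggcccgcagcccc
Cdc20 (CHR, chr4:118437344-118437463, minus strand): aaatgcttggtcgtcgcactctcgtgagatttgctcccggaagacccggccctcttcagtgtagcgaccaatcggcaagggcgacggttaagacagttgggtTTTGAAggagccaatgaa
Cdk1 (CHR, chr10:69352913-69353032, minus strand): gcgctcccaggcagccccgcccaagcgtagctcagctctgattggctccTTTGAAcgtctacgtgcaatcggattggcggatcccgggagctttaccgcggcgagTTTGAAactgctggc
Mcm6 (E2F, chr1:128359706-128359825, minus strand): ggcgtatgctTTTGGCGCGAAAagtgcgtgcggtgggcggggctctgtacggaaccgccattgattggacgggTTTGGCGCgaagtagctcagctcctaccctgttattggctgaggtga
Dusp6 (CIC octamer, chr10:99263111-99263230, plus strand): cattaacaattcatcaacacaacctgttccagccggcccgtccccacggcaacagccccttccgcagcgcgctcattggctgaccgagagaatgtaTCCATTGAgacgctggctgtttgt
Spry2 (CIC octamer, chr14:105896820-105896939, minus strand): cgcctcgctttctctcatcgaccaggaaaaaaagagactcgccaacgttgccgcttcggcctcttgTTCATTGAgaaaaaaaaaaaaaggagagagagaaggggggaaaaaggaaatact
Isg15 (ISRE, chr4:156200819-156200938, minus strand): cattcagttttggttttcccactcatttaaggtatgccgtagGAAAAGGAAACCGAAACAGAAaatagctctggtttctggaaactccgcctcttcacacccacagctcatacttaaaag
In the full windows, from 250 bases before to 50 after the start, CHR was found for 15 of the 21 mitosis genes with a window (71.4%, against 20.2% of all 27025 genes with a window and 13.5% of the 9006 kept ones), the E2F site for 10 of 22 DNA replication genes (45.5%, against 2.12% and 4.17%), the CIC octamer for 3 of 10 CIC and ERK targets (30%, against 4.45% and 2.93%) and the ISRE for 14 of 22 interferon genes (63.6%, against 9.76% and 8.41%). Matches are descriptions of these letters and not evidence of binding, and overlapping matches of one motif, as in Mcm6 and Isg15, were counted by their first base.

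Mitosis genes were much lower in CIC-D than in CIC, by more than in the FUBP1 arm and by about as much as in the NT arm. All 27 kept members of the mitosis list were lower in CIC-D past the line (13.9% of all genes), as they were in both other arms. Their median change was -4.56 in the CIC arm, -3.25 in the FUBP1 arm and -4.04 in the NT arm. Ube2c (chromosome 2, 164595429 to 164598402), the ubiquitin-conjugating enzyme of the anaphase-promoting complex, was at 0.499 FPKM in CIC-D and 175 FPKM in CIC. The other arms had Ube2c at 10.9 FPKM in FUBP1-D against 205 in FUBP1, and at 0.864 and 0.349 FPKM in 7 and GFP-D against 205 and 54.9 FPKM in TRC and GFP. Every differentiating library was below every proliferating one, and FUBP1-D kept the most. The anaphase activator Cdc20 (0.265 FPKM in CIC-D against 78.5 in CIC), the mitotic kinase Pbk (0.113 against 62.9), the chromosomal passenger subunit Cdca8 (0.922 against 109), Ccnb1 (cyclin B1, 1.27 against 118) and the kinetochore protein Ndc80 (0.0885 against 48.9) were with Ube2c among the 10 largest decreases of the arm.

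DNA replication genes were also lower in CIC-D, but by less than in the other arms. Of 28 kept members 25 passed the line downward and none upward (13.9% and 19.6% of all genes). Their median change was -1.69, against -2.89 in the FUBP1 arm and -2.68 in the NT arm. The CIC-arm change was the less negative one in 28 of 28 members against both the FUBP1 arm and the NT mean, and 19 lay above the whole range of the 5 other differences (the 4 NT pairings and the FUBP1 arm), which 26.4% of all genes did. The proliferating library stood apart here: in 26 of 28 members CIC was the lowest of the 4 proliferating libraries, as it was for 37.1% of all genes. Mcm5, a subunit of the replicative helicase, was at 0.256 FPKM in CIC-D and 26.9 FPKM in CIC, against 1.64 and 65.9 FPKM in FUBP1-D and FUBP1, 0.175 and 0.241 FPKM in 7 and GFP-D, and 65.6 and 33.2 FPKM in TRC and GFP. The ribonucleotide reductase subunit Rrm2 (3.94 FPKM in CIC-D against 54.2 in CIC, a change of -3.48, and -4.39 in the FUBP1 arm), Cdt1 (2.02 against 31.6) and Mcm3 (3.78 against 46.2) were also lower in CIC-D. The mean log2 level of the list was 2.11 in CIC-D and 4.08 in CIC, where FUBP1, TRC and GFP stood at 5.40, 5.41 and 4.68, while that of the mitosis list was 5.45 in CIC, within the 4.38 to 6.01 of those libraries. Genes of CDK inhibitors, Rb and E2F had no common direction, with 3 of 17 lower past the line, 2 higher and a median change of -0.28. The transcription factors E2f8 (0.165 FPKM in CIC-D against 5.49 in CIC, -2.48) and E2f7 were among the lower ones. The pocket protein Rbl2, which silences E2F targets in resting cells, was higher at 21.3 FPKM against 3.49.

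**Figure D3:**
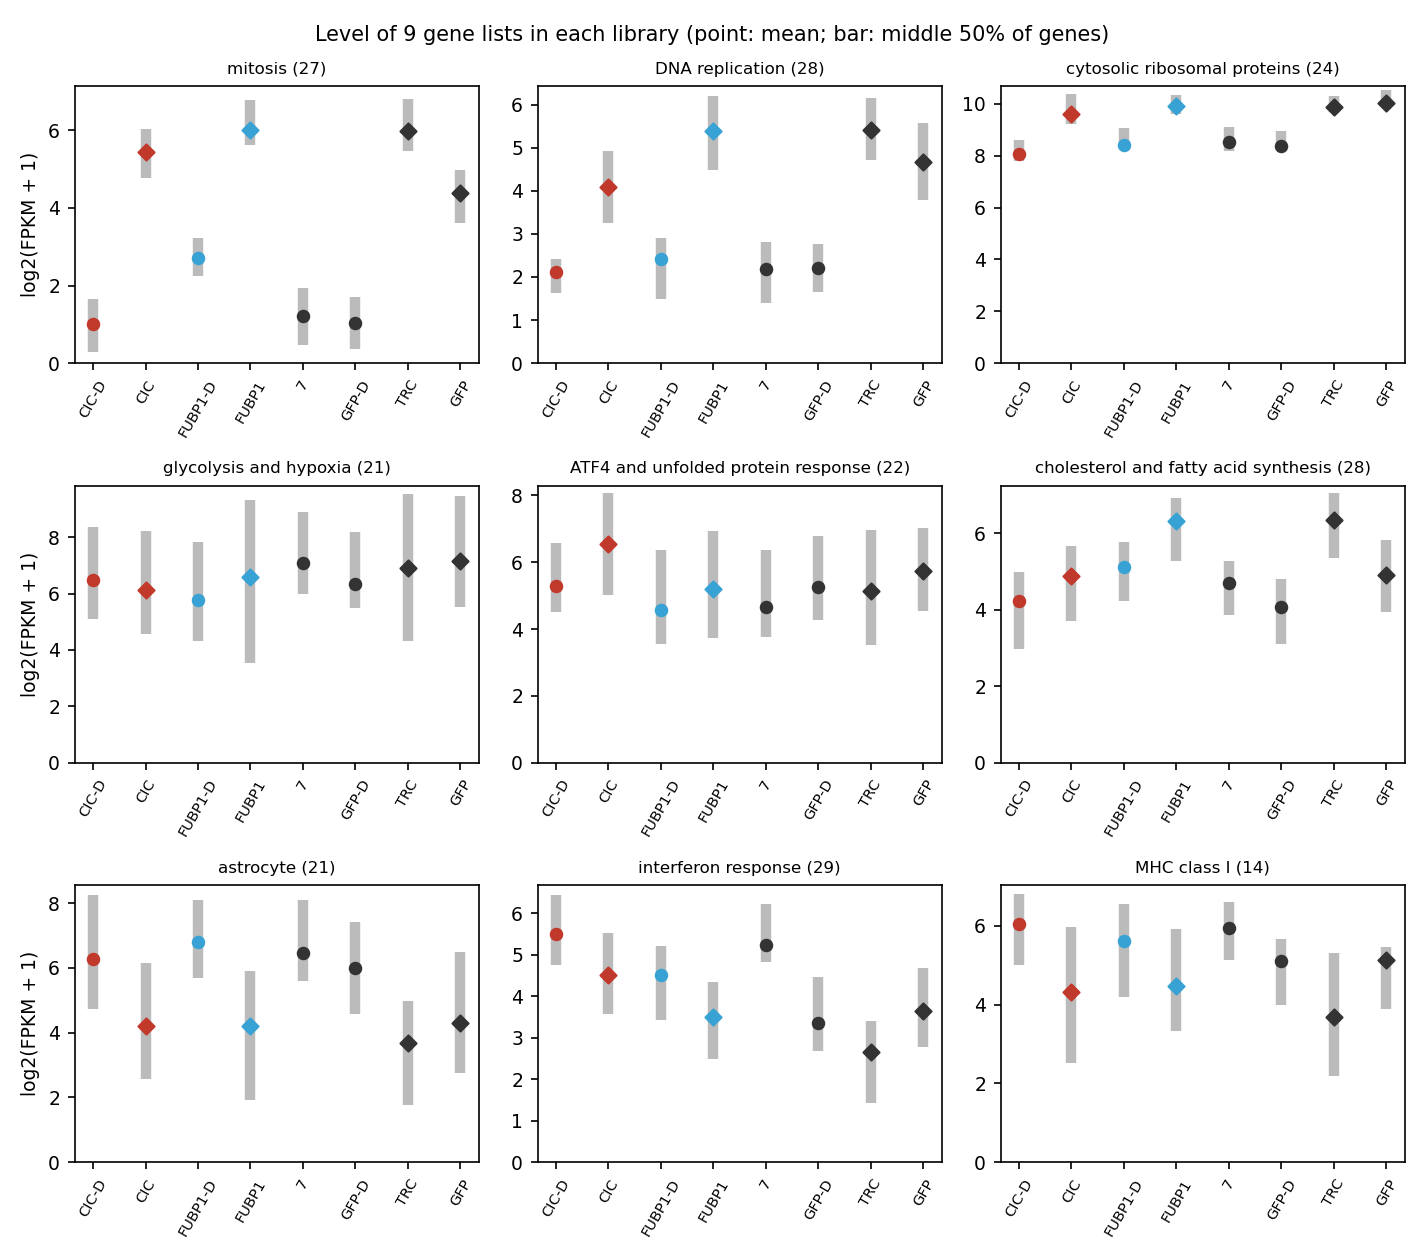
Level of 9 gene lists in each of the 8 libraries (vertical axis, log2(FPKM + 1)), with the point at the list's mean, the bar over the middle 50% of its genes, circles for differentiating and diamonds for proliferating libraries. CIC is the lowest proliferating library for DNA replication and glycolysis and the highest for the ATF4 and interferon lists, while for mitosis it lies among the others.

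Genes known as CIC and ERK targets were lower in CIC-D in the manner of the other arms. Of 18 members 11 were past the line downward and 1 upward (13.9% and 19.6% of all genes). Their median change was -1.44, against -1.12 in the FUBP1 arm and -1.51 in the NT arm, and 8 passed the line the same way in all 3 arms. The dual-specificity phosphatase Dusp6, whose promoter holds an octamer above, was at 9.12 FPKM in CIC-D and 94.1 FPKM in CIC. It was at 24.5 FPKM in FUBP1-D against 166 in FUBP1, and at 16.5 and 11.5 FPKM in 7 and GFP-D against 202 and 123 FPKM in TRC and GFP, so that CIC had the lowest Dusp6 of the proliferating libraries and CIC-D the lowest of the differentiating ones. The ETS factor Etv1 differed the most of the list (9.76 FPKM in CIC-D against 112 in CIC, a change of -3.39, with -1.57 in the FUBP1 arm and -1.86 in the NT arm). The feedback inhibitor Spry4 (7.26 against 62.4 FPKM, -2.94) and Ccnd1 (cyclin D1, 113 against 748 FPKM, -2.71) were also lower, with changes of -2.64 and -2.87 in the FUBP1 arm and of -2.60 and -3.58 in the NT arm. Within the list, CIC was above the other 3 proliferating libraries for 4 members, against 28.5% of all genes, and below them for 7, against 37.1%. Among growth factor receptors 8 of 14 passed the line upward and 1 downward (19.6% and 13.9% of all genes). Fgfr3 was at 63.5 FPKM in CIC-D against 5.10 in CIC, the neurotrophin receptor Ntrk2 at 58.0 against 6.02, and Kit at 0.545 against 4.0.

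Astrocyte genes were higher past the line in CIC-D in 15 of 21 kept members and lower in 1 (19.6% and 13.9% of all genes). Of the 15, 12 were past the line upward in all 3 arms (6.71% of all genes). The median change of 1.73 was below the 2.60 of the FUBP1 arm and the 2.40 of the NT arm. Ndrg2, a marker of mature astrocytes, was at 507 FPKM in CIC-D and 6.18 FPKM in CIC, against 245 and 6.88 FPKM in FUBP1-D and FUBP1, 370 and 170 FPKM in 7 and GFP-D, and 5.45 and 22 FPKM in TRC and GFP. CIC-D thus had the most Ndrg2 of all libraries, as it did of the angiotensin precursor Agt (301 FPKM against 4.98 in CIC) and of Ttyh1 (142 against 7.41). The water channel Aqp4 was at 72.0 FPKM in CIC-D against 1.2 in CIC. Apart from these, 3 members were chosen after their values were seen. Gfap, the intermediate filament of astrocytes, was at 5.10 FPKM in CIC-D and 2.29 FPKM in CIC, a change of 0.89, where FUBP1-D, 7 and GFP-D had 61.1, 67.9 and 31.9 FPKM against 2.54, 2.36 and 5.73 FPKM in FUBP1, TRC and GFP. The lipoprotein Apoe was at 3624 FPKM in CIC-D against 324 in CIC, and its level in CIC-D was above the 970, 1493 and 2180 FPKM of FUBP1-D, 7 and GFP-D. The calcium-binding protein S100b was at 2.08 FPKM in CIC-D against 9.16 in CIC, a change of -1.72 against 0.17 in the FUBP1 arm and -0.09 in the NT arm.

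The 10 largest increases of the arm included 2 genes of the astrocyte list, Ndrg2 and Agt, and 2 of the complement list, C3 and C1s. Pla2g7 (chromosome 17, 43705400 to 43749150), a phospholipase that degrades platelet-activating factor, was at 496 FPKM in CIC-D and 0.277 FPKM in CIC, a change of 8.60. In the other arms it was at 61.2 FPKM in FUBP1-D against 2.38 in FUBP1, and at 115 and 1204 FPKM in 7 and GFP-D against 1.03 and 43.6 FPKM in TRC and GFP. The rest were the complement component C3 (434 FPKM in CIC-D against 0.380 in CIC, 8.30), the retinaldehyde reductase Dhrs3 (79.8 against 0.0256, 6.30), Ndrg2 (6.14), Adh7 (5.82), Agt (5.66), the pseudokinase Nrbp2 (256 against 4.55, 5.54), the cholesterol 24-hydroxylase Cyp46a1 (55.1 against 0.469, 5.26), the complement protease C1s (41.3 against 0.120, 5.24) and the glucuronosyltransferase Ugt1a6b (67.5 against 0.844, 5.21). Of the 10, Adh7 alone was not higher in the NT arm.

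Over all genes 19.6% were higher and 13.9% lower past the line. Complement and inflammation genes were higher in CIC-D past the line in 12 of 17 kept members and lower in none, and 10 of the 12 matched both other arms. C4b was at 52.3 FPKM in CIC-D against 2.1 in CIC, a change of 4.10 with 3.48 and 3.44 in the FUBP1 and NT arms. The iron-binding acute-phase protein Lcn2 was at 277 FPKM in CIC-D against 24.1 in CIC. Genes of MHC class I antigen presentation were higher in 10 of 14 and lower in none, with a median change of 1.87 against 1.07 in the FUBP1 arm and 1.25 in the NT arm. The NT change depended on the pair, since GFP-D minus GFP had a median of 0.02 and 7 minus TRC of 2.34. Mean log2 levels of the list differed between NT libraries in both states, at 3.69 in TRC and 5.12 in GFP. They were 5.93 in 7 and 5.11 in GFP-D. The immunoproteasome subunit Psmb9 was at 15.9 FPKM in CIC-D and 1.26 FPKM in CIC, against 12 and 5.36 FPKM in FUBP1-D and FUBP1, 18.2 and 13.1 FPKM in 7 and GFP-D, and 1.76 and 12.9 FPKM in TRC and GFP. For Psmb9 the CIC library was the lowest of the proliferating ones, as for 2 of the 14 members, whereas CIC-D was the highest differentiating library for 11 of the 14, against 25.4% of all genes.

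Interferon response genes were higher past the line in 14 of 29 kept members and lower in 1 (19.6% and 13.9% of all genes). Their median change was 0.90, against 0.83 in the FUBP1 arm and 0.99 in the NT arm. The NT pairs went opposite ways, with a median of -0.30 for GFP-D minus GFP and 2.65 for 7 minus TRC. The CIC library already held more of them than the other proliferating libraries in 24 of 29 members (28.5% of all genes), and CIC-D more than the other differentiating libraries in 19 of 29 (25.4% of all genes). The mean log2 level of the list was 5.50 in CIC-D and 4.51 in CIC, against 4.52 and 3.51 in FUBP1-D and FUBP1, 5.23 and 3.35 in 7 and GFP-D, and 2.66 and 3.65 in TRC and GFP. Ifit3 was at 301 FPKM in CIC-D and 7.76 FPKM in CIC, a change of 5.11. It was at 31.8 FPKM in FUBP1-D against 3.04 in FUBP1, and at 152 and 10.3 FPKM in 7 and GFP-D against 1.30 and 5.73 FPKM in TRC and GFP. The transcription factor Irf1 was at 101 FPKM in CIC-D against 9.91 in CIC (3.23), and Isg15, shown above and chosen after its values were seen, was about level at 343 against 321 FPKM.

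Genes of progenitors changed in both directions, with 5 higher and 3 lower past the line of 20 kept, shares near those of all genes (19.6% and 13.9%). Among the higher ones was the transcription factor Sox1, at 9.85 FPKM in CIC-D against 1.78 in CIC. The fatty acid-binding protein Fabp7, a radial glia marker, was at 98.9 FPKM in CIC-D and 2493 FPKM in CIC. It was at 619 FPKM in FUBP1-D against 1285 in FUBP1, and at 202 and 149 FPKM in 7 and GFP-D against 1002 and 1434 FPKM in TRC and GFP. The CIC library had the most Fabp7 and CIC-D the least, and the change of -4.64 exceeded the -1.05 of the FUBP1 arm and the -2.79 of the NT arm. The Notch effector Hes1 (4.78 FPKM in CIC-D against 59.0 in CIC) changed by -3.38 against -1.57 in both other arms, the Notch ligand Jag1 (5.82 against 77.8) by -3.53, and the chromatin protein Hmga2 (21.7 against 104) by -2.20. The receptor Notch2 was higher (57.8 against 11.5 FPKM). Neuron genes passed the filter in 12 of 30, with 2 higher and 3 lower. The growth cone protein Gap43 was at 4.13 FPKM in CIC-D against 250 in CIC, where the other proliferating libraries held 2.68 to 30.6 FPKM. Nsg2 went the other way, at 42.1 FPKM in CIC-D against 3.78 in CIC, and was past the line upward in all 3 arms. CIC-D was the lowest differentiating library for 8 of the 12 neuron genes (29.7% of all genes). Scg3 was at 1.51 FPKM in CIC-D, against 22.2 to 52.7 FPKM in the other differentiating libraries. Of the oligodendrocyte lineage 9 genes were kept, with 3 higher, among them the myelin-associated enzyme Cnp at 103 FPKM in CIC-D against 47.3 in CIC, and 2 lower. The median change of the 9 was -0.0068. With the genes not kept, 19 markers of the lineage summed to 623 FPKM in CIC-D against 729 in CIC.

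Cytosolic ribosomal protein genes were lower past the line in 21 of 24 members, with a median change of -1.68 against -1.33 in the FUBP1 arm and -1.54 in the NT arm. Rps18 was at 390 FPKM in CIC-D against 1497 in CIC, and at 554 FPKM in FUBP1-D against 1654 in FUBP1. Their level in CIC-D was the lowest of the differentiating libraries in 20 of 24 members (29.7% of all genes). Over all genes 13.9% were lower past the line in the CIC arm. Splicing regulators were lower in 9 of 32 and higher in 1, with Srsf3 at 45.0 FPKM in CIC-D against 228 in CIC and Tra2b at 41.3 against 171. In the FUBP1 and NT arms 9 and 7 of them were lower. Respiratory chain genes were lower in 6 of 26, with 9 and 8 lower in the FUBP1 and NT arms. Cytochrome c (Cycs) was at 34.3 FPKM in CIC-D against 165 in CIC. Genes of the LSD1 complex were lower in 4 of 17 and higher in 1, with 0 and 2 lower in the FUBP1 and NT arms. Their median change was small in each arm, at -0.16 in the CIC, -0.03 in the FUBP1 and 0.09 in the NT arm. In the FUBP1 arm Hdac2 and Rcor1 changed by -0.79 and -0.81, short of the line. The lower ones in the CIC arm were Hdac1 (21.2 against 76.0 FPKM), Hdac2 (46.9 against 142), the corepressor Rcor1 (7.17 against 21.2) and Insm1.

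The ATF4 and unfolded protein response genes were lower in CIC-D by more than in either other arm. Of 22 genes 12 were lower past the line and none higher (13.9% and 19.6% of all genes). Their median change was -1.56, against -0.41 in the FUBP1 arm and -0.57 in the NT arm. The CIC-arm change was the lower one in 14 of 22 members against the FUBP1 arm and in 15 against the NT mean, and 10 lay below the whole range of the 5 other differences (21.7% of all genes). The mean log2 level of the list was 6.55 in CIC, above the 5.13 to 5.73 of the other proliferating libraries. In CIC-D it was 5.30, near the 5.27 of GFP-D and above the 4.58 of FUBP1-D and the 4.66 of 7. By member, CIC-D was the highest differentiating library in 12 of 22 (25.4% of all genes), and CIC the highest proliferating library in 13 (28.5%). Ddit3 (CHOP, chromosome 10, 126727849 to 126733344), a transcription factor of the stress response, was at 115 FPKM in CIC-D and 660 FPKM in CIC. It was at 33.9 FPKM in FUBP1-D against 10.8 in FUBP1, and at 54.7 and 81.1 FPKM in 7 and GFP-D against 9.93 and 42.2 FPKM in TRC and GFP. CIC had the most Ddit3 of all libraries and CIC-D the second most, and the change of -2.51 ran opposite to the 1.57 of the FUBP1 arm and the 1.64 of the NT arm. Atf3, another stress-induced transcription factor, was at 4.39 FPKM in CIC-D and 82.2 FPKM in CIC, against 0.943 to 6.33 FPKM in the other 6 libraries. The pseudokinase Trib3 was at 11.5 FPKM against 203, the serine hydroxymethyltransferase Shmt2 at 35.5 against 441, the asparagine synthetase Asns at 20.7 against 202, and the amino acid transporter Slc7a5 at 45.2 against 384.

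Glycolysis and hypoxia genes had no common direction in the CIC arm, with 7 of 21 higher past the line and 3 lower. Their median change was 0.05, against -1.13 in the FUBP1 arm and -0.31 in the NT arm. The NT pairs differed, with -0.99 for GFP-D minus GFP and -0.09, near the CIC arm, for 7 minus TRC. Of the 21 members, 13 lay above the range of the 5 other differences (26.4% of all genes). In 16 of 21 members CIC was the lowest proliferating library (37.1% of all genes). The vasodilator peptide Adm was at 225 FPKM in CIC-D and 53.5 FPKM in CIC, against 34.9 and 95.9 FPKM in FUBP1-D and FUBP1, 111 and 38.6 FPKM in 7 and GFP-D, and 112 and 105 FPKM in TRC and GFP. Its change of 2.06 ran opposite to the -1.43 of the FUBP1 arm. The glucose-6-phosphate isomerase Gpi1 (706 FPKM in CIC-D against 241 in CIC) and the pyruvate dehydrogenase kinase Pdk1 (9.12 against 1.70) were higher, and the phosphofructokinase Pfkp (7.03 against 35.7) was lower. Cholesterol and fatty acid synthesis genes were lower in 10 of 28 and higher in 1 (13.9% and 19.6% of all genes). Their median change was -0.65, against -1.21 in the FUBP1 arm and -1.05 in the NT arm. The NT pairs differed, with -0.65 for GFP-D minus GFP, as in the CIC arm, and -1.64 for 7 minus TRC. The mean log2 level of the list was 4.89 in CIC and 4.90 in GFP, against 6.33 in FUBP1 and 6.35 in TRC. CIC was the lowest proliferating library in 15 members, against 37.1% of all genes. The farnesyl diphosphate synthase Fdps was at 25.4 FPKM in CIC-D against 79.6 in CIC, and FUBP1 and TRC held 276 and 308 FPKM.

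**Figure D4:**
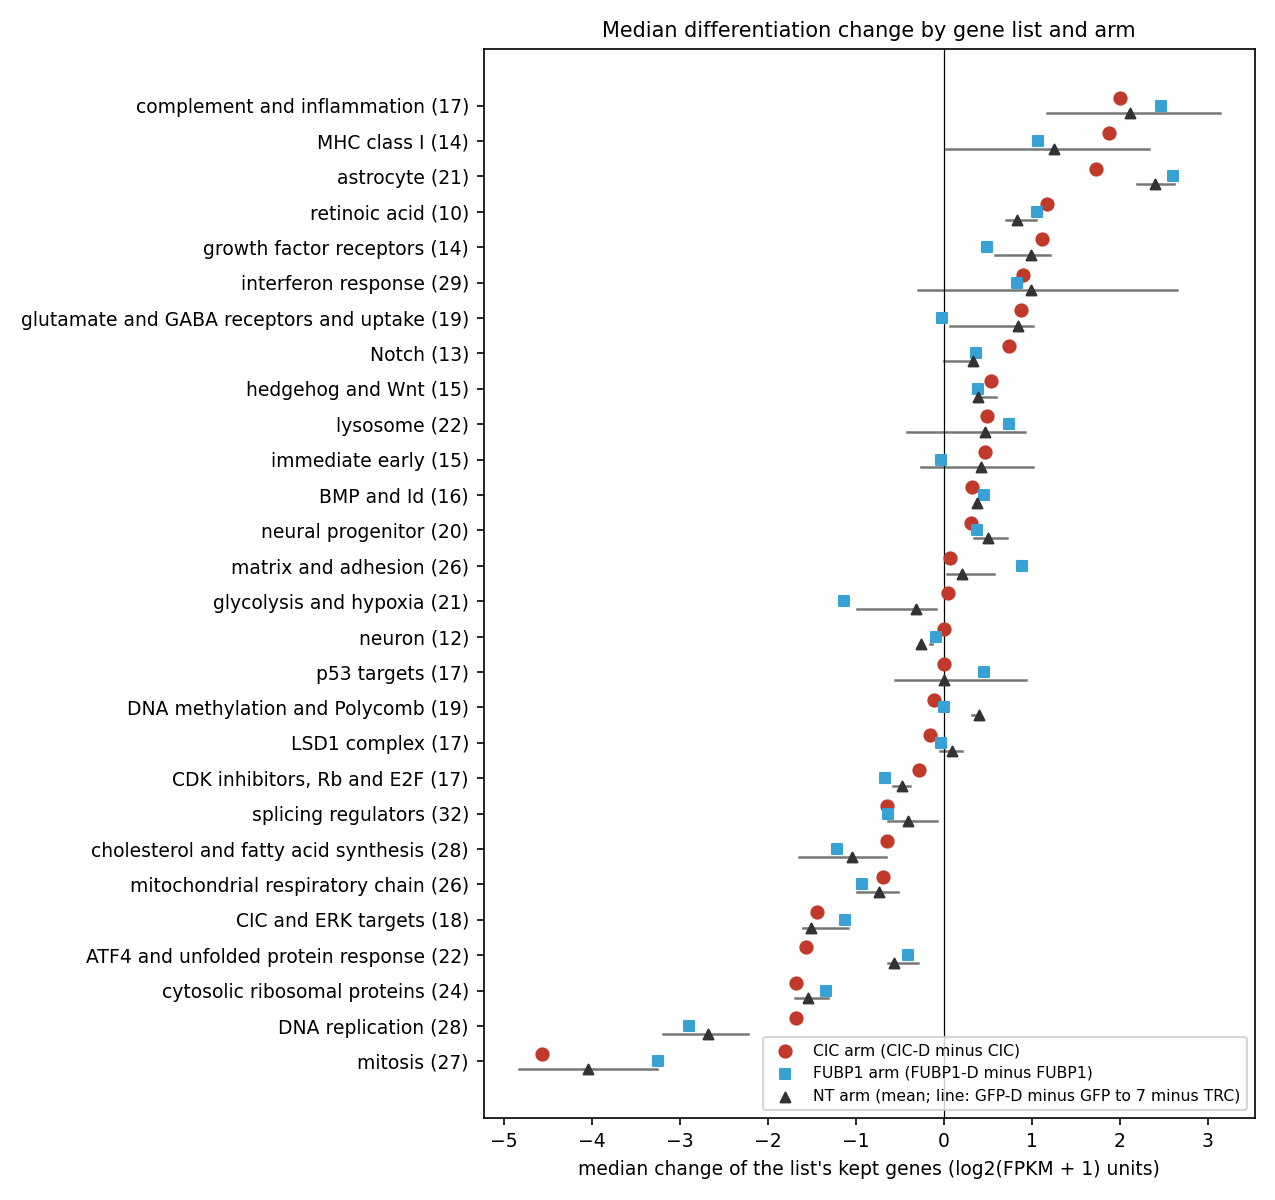
Median change per gene list (horizontal axis, log2(FPKM + 1) units; lists down the vertical axis with the number of kept genes) in the CIC arm (red circle), the FUBP1 arm (blue square) and the NT arm (black triangle, with a line between the medians of GFP-D minus GFP and 7 minus TRC). The lists in which the CIC arm stands outside the FUBP1 marker and the NT line include DNA replication (-1.69), ATF4 and the unfolded protein response (-1.56) and glycolysis and hypoxia (0.05).

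Over all genes 19.6% were higher and 13.9% lower past the line, and 4 signalling lists are given beside these shares. Retinoic acid genes were higher past the line in 6 of 10 and lower in 1, BMP and Id genes higher in 5 of 16, Notch genes higher in 6 and lower in 2 of 13, and hedgehog and Wnt genes higher in 5 and lower in 1 of 15. Wnt7b was at 171 FPKM in CIC-D against 37.8 in CIC, and in FUBP1, TRC and GFP it was already at 133, 147 and 99.3 FPKM. The matrix list split, with 8 higher and 7 lower of 26. Tenascin C (Tnc) was at 18.7 FPKM in CIC-D against 1249 in CIC, where FUBP1, TRC and GFP held 53.6, 14.1 and 192 FPKM. Versican (Vcan) was at 20.7 FPKM against 103, a change of -2.26 where the FUBP1 arm had 1.54. Of the lysosome list 6 of 22 were higher and none lower. Among p53 targets 3 of 17 were higher and 3 lower, with a median change of 6.1e-05. The death receptor Fas was higher, at 122 FPKM in CIC-D against 3.86 in CIC, as was the sestrin Sesn1, at 74.6 against 3.36. Plk2 was lower, at 20.6 FPKM against 78.3.

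The CIC-arm change was more than 1 log2 unit above the range of the 5 other differences in 327 genes (2.73%) and below it by that margin in 203 (1.7%). Among the 327, CIC-D was the highest differentiating library in 172 (25.4% of all genes) and CIC the lowest proliferating one in 311 (37.1%). Among the 203, CIC-D was the lowest differentiating library in 104 (29.7% of all genes) and CIC the highest proliferating one in 187 (28.5%). Both libraries lay outside the others of their state in 205 of the 327 and 129 of the 203, and CIC alone did in 112 and 67. The genes were selected on the difference between the 2 libraries, so these counts are descriptions.

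The genes furthest above the range included Adh7, a retinol-oxidizing alcohol dehydrogenase, the integrin subunit Itga8, the phosphodiesterase Pde2a, the chemokine Cx3cl1, the calcium-binding Hrc, the peroxiredoxin-restoring enzyme Srxn1 and the dynamin Dnm1. Adh7 was at 665 FPKM in CIC-D and 10.8 FPKM in CIC, while FUBP1, TRC and GFP held 140, 254 and 1132 FPKM. Cx3cl1 was at 108 FPKM against 4.0, with 73.9 to 173 FPKM in the other 6 libraries, and Pde2a at 23.2 FPKM against 1.15, with 22.8 to 130 FPKM in the others. For Hrc (22.8 FPKM in CIC-D against 0.148 in CIC), Srxn1 (117 against 7.84) and Dnm1 (54.0 against 2.64) CIC-D was above all other libraries, and for Srxn1 and Dnm1 CIC was also below all of them. Furthest below the range were Nfe2l1, Atf3, the prostaglandin synthase Ptgs2 (0.416 FPKM against 35.3), Hist2h2bb, Ddit3, the channel subunit Kcnmb4, the hyaluronan-binding Tnfaip6 (2.09 against 84.3) and the deubiquitinase family member Usp53. Nfe2l1 (chromosome 11, 96678728 to 96691282), a transcription factor of proteasome genes, is listed at 0 in CIC-D, with 179 FPKM in CIC and 71.4 to 213 FPKM in the others. Since a 0 beside such levels can be a failed estimate, no fold is given.

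**Figure D5:**
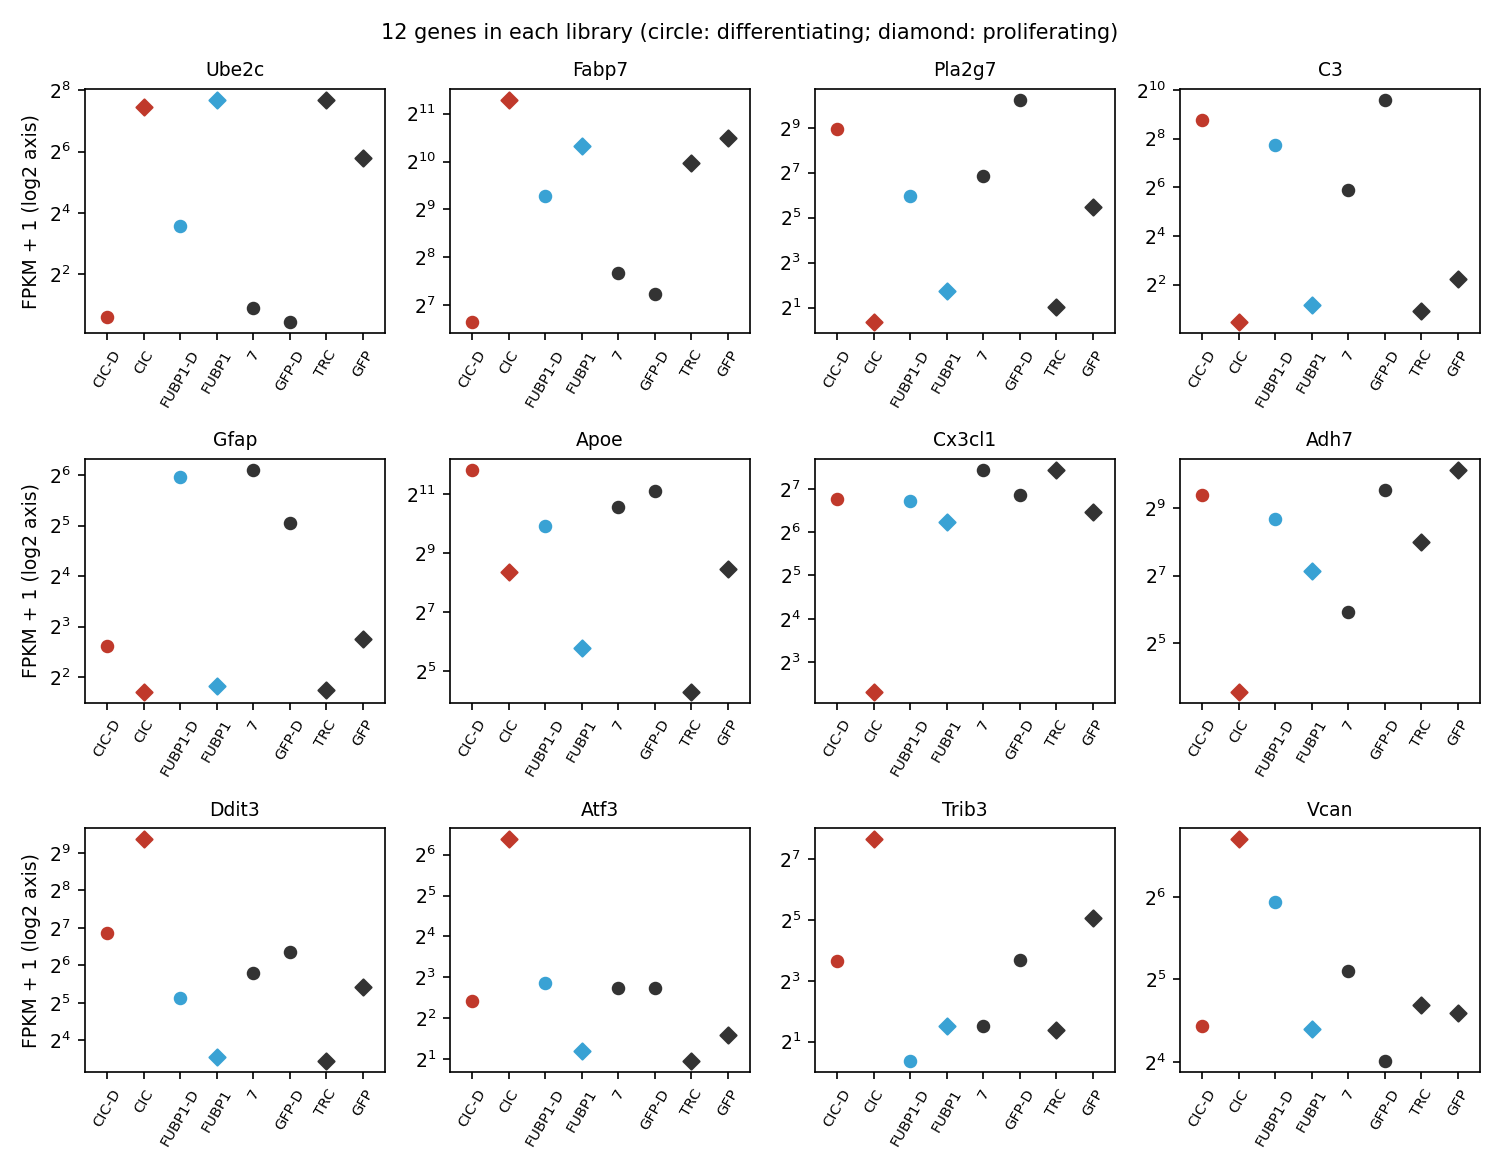
FPKM + 1 (log2 axis) of 12 genes in the 8 libraries, CIC-D and CIC in red, FUBP1-D and FUBP1 in blue and NT in black, with circles for differentiating and diamonds for proliferating libraries. Ube2c, C3, Pla2g7 and Apoe separate the states in all arms, Gfap stays at 5.10 FPKM in CIC-D, Cx3cl1 is low in CIC alone, Adh7 is lowest in CIC, and Ddit3, Atf3 and Trib3 are highest in CIC.

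The difference between the CIC-arm change and that of the other arms was tested in limma with a state by CIC term over the 8 libraries, in which the single CIC libraries are assumed to vary like the others. No gene was called (0 of 11968 at a Benjamini-Hochberg adjusted p under 0.05, with 978 at an unadjusted p under 0.05). The smallest adjusted p belonged to Nfe2l1 (limma adjusted p = 0.0535), lower in the CIC arm through the value listed at 0, for which no size is given, followed by Atf3 (-5.49, SE 0.48, adjusted p = 0.135). Higher estimates with the next smallest values included Dnm1 (3.05, SE 0.35, adjusted p = 0.303) and Srxn1 (3.59, SE 0.44, adjusted p = 0.381). The gaps described for single genes are therefore values of these libraries that did not pass this test.

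Markers of other brain cells were mostly low. Of 13 microglia markers 7 were at 0 in both CIC libraries, among them Tmem119 and Cx3cr1, and their summed level was 6.13 FPKM in CIC-D against 4.45 in CIC, most of it Cd68. The 9 endothelium markers summed to 1.23 against 1.87 FPKM and the 12 mesenchyme and pericyte markers to 3.44 against 11.7 FPKM, with Pdgfrb at 0 in both. Ependyma markers summed to 63.6 FPKM in CIC-D against 5.36 in CIC. Most of it was the cilia regulator Foxj1, at 47.6 against 2.64 FPKM, and Rarres2, at 14.4 against 1.16 FPKM. Of the 8 ependyma markers 5 were under 1 FPKM in both CIC libraries, and of these Tmem212 was lower in CIC-D, at 0.0842 against 0.713 FPKM. In the other arms the ependyma sum was 39.4 to 46.0 FPKM in the differentiating and 11.1 to 14.4 FPKM in the proliferating libraries. In bulk libraries a change in the number of cells of a type and a change in RNA per cell cannot be told apart. Finally, 9 genes were under 1 FPKM in both CIC libraries and above 5 FPKM in the other 6, among them the collagen chaperone Serpinh1, the protease Mmp14 and the lysosomal Ctsz (named after their values were seen), so that the arm has no readable change for them.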

How the data were processed

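RNA was sequenced from 8 libraries. The authors deposited 1 table of FPKM values per gene and library. The submitters' processing notes name TopHat2 2.0.11, Cufflinks 2.1.1 and the build mm9, but neither the gene annotation nor the use of strand, so overlapping and closely related genes are uncertain. Values were used unscaled as log2(FPKM + 1), which understates changes of low genes, for the 11968 of 20793 rows with at least 1 FPKM in 2 libraries. The CIC arm has 1 library a side and no test. The NT replicate numbers follow deposition order and pair no libraries, and nothing says they are separate cultures, so p-values measure a spread between libraries that may be technical. The state by CIC term was fitted with limma 3.58.1 in R 4.3.3 (3 residual degrees of freedom, Benjamini-Hochberg over all rows) and tested on simulated data. Named genes were the largest changes, those furthest outside the other arms and up to 4 members a list with the largest change. The gene lists and members were chosen with earlier results of these data known. Positions in the table are mm9 and promoters are RefSeq GRCm38.p6. Alternatives were other pseudocounts, filters, scalings, thresholds and left-out libraries.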

Additional observations from a re-analysis of the deposited data

How the results depend on the processing

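Depth is unknown, and low values are the least certain. With a pseudocount of 5, 1347 genes were higher in CIC-D, 388 of them in all 3 arms, and opposite movement was seen in 12 increases and 5 decreases; with 0.1 it was seen in 63 and 54. At 2 log2 units 697 genes were higher and 399 lower, of which 150 and 188 were shared by all 3 arms, 389 and 151 matched neither, and 1 and 0 were opposite. Against 7 and TRC alone 47 increases and 47 decreases were opposite. Without 1 NT replicate the shared increases ran from 657 to 929 and the shared decreases from 564 to 802, those matching neither from 793 to 982 and from 592 to 639, and the opposite ones from 34 to 47 (47 without TRC, NT_proliferating replicate 1) and from 29 to 46 (46 without GFP, NT_proliferating replicate 2). The scalings changed the balance of directions: quantile normalization gave 1835 higher and 1748 lower (51.2% higher) and shifted the median of all genes by -0.13, and median of ratios gave 2097 and 1975 (51.5%). The state by CIC count of 0 became 1 (Nfe2l1) with a pseudocount of 0.1, with a filter of 5 FPKM and without NT_proliferating replicate 1 (0 to 1 over the left-out libraries), and 27 without a filter. List medians in the CIC arm that moved by more than 1 SD of the same median over the 4 NT differences were as follows. With a pseudocount of 0.1 they were -6.07 for mitosis, 0.37 for matrix and -0.95 for the FUBP family, Myc and D cyclins. With a pseudocount of 5 they were -1.08 for DNA replication, -2.75 for mitosis, 0.56 for Notch, 0.16 for BMP and Id and 0.81 for retinoic acid. With no filter they were 0.54 for growth factor receptors, 0.97 for complement, 0.0079 for glutamate and GABA, 0.55 for Notch, 0.22 for BMP and Id, 0.27 for retinoic acid and 0.032 for imprinted genes. With a filter of 5 FPKM they were -0.0078 for the LSD1 complex, -0.64 for the FUBP family, -0.37 for immediate early genes and -0.44 for DNA methylation and Polycomb. With quantile normalization they were -0.71 for the FUBP family, -0.46 for the respiratory chain and -1.11 for ribosomal proteins, and with median of ratios 0.20 for BMP and Id. The cause of these moves was not tested. No named gene past the line changed sign under the other pseudocounts, filters and scalings. No paired analysis was possible because the CIC arm has 1 library in each state.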
